A study of Rattus norvegicus with 4 samples.

Results

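The stretches described here are the 6970 gaps of 100 to 500 bp that separate neighbouring H3K27Ac peaks in vehicle-treated rat oligodendrocytes. They were chosen by peak positions in the vehicle H3K27Ac list alone: each runs from the end of one peak to the start of the next on the same chromosome. They make up 17.9% of the 38881 intervals between neighbouring vehicle peaks. Because the vehicle H3K27Ac list set the members, its own values are given as description, and comparisons rest on the LPC H3K27Ac list and on both Olig2 lists.

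The study profiled differentiated oligodendrocytes grown from rat brain glia by chromatin immunoprecipitation sequencing with antibodies to H3K27Ac and to Olig2. In all 4 libraries the precursors had been expanded with PDGF-AA and bFGF and then differentiated with the thyroid hormone T3 and ciliary neurotrophic factor. Cells received vehicle, or lysolecithin (lysophosphatidylcholine, LPC), a lipid used to strip myelin, for 6 h. The labels state 12.5 mM LPC, and whether that unit is right was not established. Each antibody and condition had 1 library, so differences have no replicate check and no p-value. Intervals below are exact binomial or Newcombe 95% intervals, which cover counting error only and treat gaps as independent.

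Acetylation of lysine 27 on histone H3 marks active promoters and enhancers. A transcription factor bound at such an element can displace or flank nucleosomes, and the histone signal then dips between 2 acetylated shoulders, a pattern often called a valley. Olig2 is a basic helix-loop-helix transcription factor needed for specification and differentiation of the oligodendrocyte lineage. A gap in a peak list is not the same as a measured valley: it shows that no peak was called there, and whether the authors' processing split peaks is not given in the sources used here.

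Short gaps were frequent in both H3K27Ac lists, and more so in vehicle. The vehicle gaps had a median length of 186 bp (quartiles 135 and 273 bp) and together spanned 1516 kb. A total of 13189 vehicle peaks (33.9% of the list) stood beside at least 1 of them. The flanking peaks were of ordinary length, with medians of 666 bp on the left and 676 bp on the right, against 674 bp for all vehicle peaks. The LPC H3K27Ac list, cut by the same rule, held 5224 such gaps (13.5% of its 38700 intervals) with a median of 178 bp. That list covered 41.7 Mb with 38721 peaks, and the vehicle list 34.4 Mb with 38902 peaks. The limits of 100 and 500 bp fell on a smooth slope. There were 594 vehicle gaps from 90 to under 100 bp and 513 from 100 to under 110 bp. Near the other limit there were 256 over 450 and up to 500 bp and 220 over 500 and up to 550 bp. The LPC peaks filled 63.3% and 61.8% of the gaps on either side of the lower limit and 15.2% and 15.0% on either side of the upper one.

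**Figure D1:**
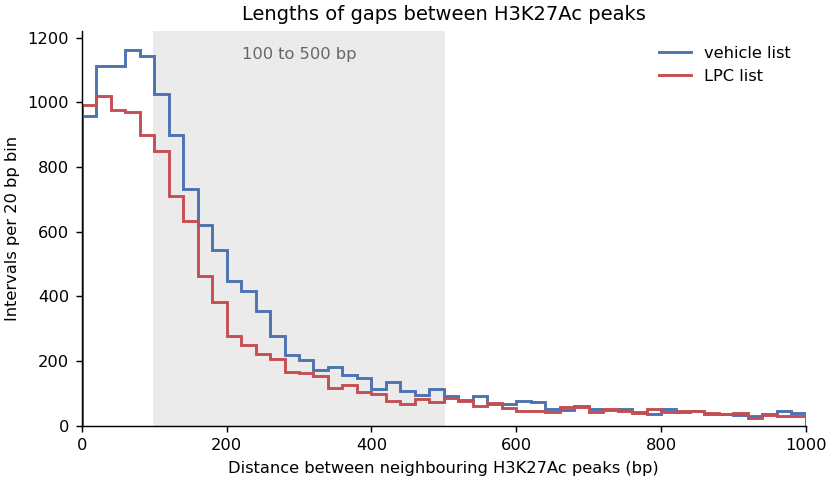
Number of intervals between neighbouring H3K27Ac peaks per 20 bp of length (x axis, bp) in the vehicle list (blue) and the LPC list (red); grey marks 100 to 500 bp. Both curves fall steeply from about 100 bp, and the vehicle list holds 6970 intervals in the grey range against 5224 in the LPC list.

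Most gaps stood alone. Of the 6219 runs of consecutive short gaps, 5570 consisted of a single gap, and 1400 gaps (20.1%) lay in 649 runs of 2 or more. The longest run had 6 gaps and 7 peaks on chromosome 15 (66414566 to 66425688 on the rat build rn4). Its gaps were 104 to 170 bp long, and in LPC 2 were filled, 3 were partly filled and 1 was kept. A run of 5 gaps on chromosome 7 (11089841 to 11093379) had all 5 partly filled. A run of 4 gaps on chromosome 15 (105568110 to 105576007) also had all 4 partly filled, whereas a run of 4 on chromosome 14 (18201359 to 18208351) had 3 filled. None of these 4 runs held an Olig2 midpoint of either list within a gap. Gaps were filled about as often in runs as alone: 36.5% in runs of 1, 36.7% in runs of 2 and 35.7% in runs of 3.

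After LPC, H3K27Ac peaks reached into most of the gaps. Of the 6970 gaps, 2541 (36.5%, 35.3 to 37.6) were filled, meaning that LPC peaks covered every base. Another 3697 (53.0%, 51.9 to 54.2) were partly filled. Only 251 (3.60%, 3.18 to 4.07) were kept, with no base in an LPC peak and an LPC peak on both flanks. In 337 gaps (4.84%) 1 flank was left, and in 144 (2.07%) both flanks had no LPC peak. Over all 38881 intervals of the vehicle list 17.2% were filled and 5.86% kept. Of those intervals 23820 were longer than 2 kb. LPC peaks covered 57.9% of the bases in the gaps and 88.7% of the bases in the peaks beside them.

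Filling fell with gap length. LPC peaks filled 55.2% (53.2 to 57.3) of gaps from 100 to under 150 bp and 38.0% of those from 150 to under 200 bp. The shares were 23.6% from 200 to under 300 bp, 20.2% from 300 to under 400 bp and 19.6% (16.4 to 23.1) from 400 to 500 bp. Outside the limits, 72.9% of gaps under 100 bp and 10.5% of the 1327 gaps over 500 and up to 1000 bp were filled. The members were filled 26.0 percentage points (23.9 to 27.9) more often than these longer gaps. Cover of every base is harder to reach in a longer gap, so this difference follows in part from the definition. Kept gaps showed no such slope, with shares of 3.15% to 4.30% in the 5 length classes from 100 to 500 bp.

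Vehicle peaks seldom filled the gaps of the LPC list. They covered every base in 599 of the 5224 LPC-list gaps (11.5%, 10.6 to 12.4), against 6.28% of all LPC-list intervals. The share was 25.0 points (23.6 to 26.4) below that for vehicle gaps filled by LPC. Among gaps with a peak of the other list on both flanks, the shares were 43.0% for vehicle gaps and 17.0% for LPC gaps, a difference of 25.9 points (24.1 to 27.7). Kept gaps went the other way, with 1067 LPC-list gaps (20.4%, 19.3 to 21.5) kept in the vehicle list. The LPC list covers more of the genome than the vehicle list. When 94 bp were cut from each end of every LPC peak, so that both lists covered 34.4 Mb, the kept gaps rose to 2103 (30.2%) and the partly filled ones dropped to 1761 (25.3%). The filled gaps numbered 2282 (32.7%, 31.6 to 33.9), but trimming ends seldom reopens a gap inside a longer peak by construction, so this value does not test whether filling depends on the extent of LPC peaks. Read depth is unknown, and its part in the difference between the lists was not tested.

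**Figure D2:**
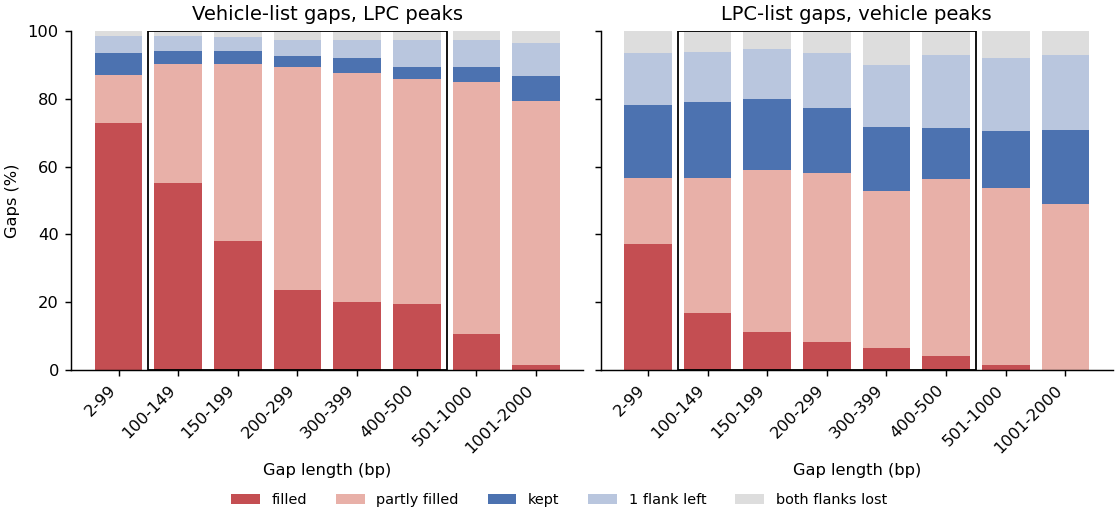
Shares of gaps (y axis, %) by gap length (x axis, bp) that the other H3K27Ac list filled, partly filled, kept, or lost on 1 or both flanks, for vehicle-list gaps (left) and LPC-list gaps (right); boxes mark 100 to 500 bp. Filling falls from 55.2% to 19.6% across the left box and from 16.7% to 4.22% across the right one.

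A filled gap was in effect 1 longer LPC peak. The 2541 filled gaps were bridged by 2445 LPC peaks, of which 2353 bridged a single gap and 92 bridged 2 or 3. Bridging peaks had a median length of 1789 bp (quartiles 1364 and 2458 bp), against 823 bp for the LPC list as a whole. A peak that covers a whole gap tends to be long by selection, so this contrast follows in part from the definition. The vehicle pairs they joined spanned a median of 1673 bp. In 897 filled gaps (35.3%) the bridging peak covered both vehicle peaks from end to end.

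Where a gap was not filled, the LPC list usually had a gap at nearly the same place, and a narrower one. A single LPC interval with LPC peaks on both flanks was found at 3371 gaps. In 3268 of these (96.9%) the LPC interval was itself at most 500 bp long. It lay wholly within the vehicle gap in 1636, enclosed it in 251, and was displaced to the left in 714 and to the right in 770. At these gaps the median length fell from 212 bp for the vehicle interval to 133 bp for the LPC interval, and the LPC interval was the shorter one in 78.1%. Their centres lay a median of 37.5 bp apart, within 50 bp in 61.5%, with no lean to either side (median displacement 4 bp, quartiles -31.5 and 43.2 bp). Only LPC intervals that overlapped the gap and had LPC peaks on both flanks were counted. That choice limits how far apart the centres can lie and how long the LPC interval can be, so the closeness follows in part from it. The vehicle gaps were chosen at 100 bp or more and the LPC intervals had no lower limit, which enlarges the shortening. Starting from LPC-list gaps, 2908 had a single vehicle interval, with medians of 175 bp in LPC and 227 bp in vehicle. The median difference was then 33 bp, against -71 bp above, and the vehicle interval was the shorter one in 36.4%.

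Over all gaps the share filled differed little with the length of the flanking peaks, but it fell where both flanks had an LPC peak. In the 20% of gaps with the shortest flanking peaks (502 to 1053 bp summed) 33.5% (31.1 to 36.1) were filled, and in the 20% with the longest (2178 bp and more) 37.8% (35.2 to 40.4). Among gaps with an LPC peak on both flanks the order was the opposite, 47.4% (44.3 to 50.6) with the shortest and 40.5% (37.8 to 43.3) with the longest flanking peaks. An LPC peak was present on both flanks in 70.7% of the former and 93.2% of the latter.

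For comparison with the space between 2 peaks, windows of the same length were laid just beyond the outer edges of each pair. Of 11804 such windows free of vehicle peaks, LPC peaks covered 2674 entirely (22.7%, 21.9 to 23.4). That share was 13.8 points (12.4 to 15.2) below that of the gaps. With the next vehicle peak more than 1000 bp away, 21.3% of windows were covered. In the LPC list the same contrast was 11.5% of gaps against 8.63% of windows, a difference of 2.84 points (1.81 to 3.89). LPC peaks can extend into a gap from 2 sides, and from the acetylated pair into an outer window from 1.

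Gaps on chromosome X were filled less often. Of the 158 gaps on X, 22.8% (16.5 to 30.1) were filled, against 36.8% (35.6 to 37.9) of 6812 on autosomes, a difference of -14.0 points (-19.9 to -6.76). Among gaps with both flanks present in LPC the values were 26.5% on X and 43.4% on autosomes. The autosomes ran from 28.7% on chromosome 14 (23.3 to 34.5) to 42.0% on chromosome 19 (34.9 to 49.3), so the intervals of X and chromosome 14 overlap. X was singled out after its values were seen.

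Olig2 peaks lay over a minority of the gaps. A vehicle Olig2 peak overlapped 609 gaps (8.74%, 8.08 to 9.42) and an LPC Olig2 peak 396, with 386 gaps overlapped in both lists and 619 in either. The share of all vehicle-list intervals overlapped by an Olig2 peak is not given here. Whether 8.74% is high or low for such intervals was therefore not tested. Of the 595 vehicle Olig2 peaks over a gap, 210 (35.3%, 31.5 to 39.3) had their midpoint in the gap and 380 (63.9%) in a flanking peak. Of the 391 LPC Olig2 peaks over a gap, 154 (39.4%, 34.5 to 44.4) had the midpoint in the gap and 236 in a flanking peak. All 210 vehicle peaks with a midpoint in a gap spanned the whole gap, since they had a median length of 1102 bp. A midpoint is therefore the only position that can be set against a gap of this size, and it is the centre of a called interval, not a measured summit.

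Per length of sequence, Olig2 midpoints were denser in the gap than on its flanks. The 210 vehicle midpoints amounted to 13.9 per 100 kb of gap. In the flanks, taken as the 500 bp of vehicle H3K27Ac peak on each side, 356 midpoints amounted to 5.53 per 100 kb. The ratio was 2.51 (2.10 to 2.98). For the LPC Olig2 list it was 2.81 (2.28 to 3.46), from 154 midpoints in gaps and 233 in flanks (10.2 and 3.62 per 100 kb). All vehicle H3K27Ac peaks together held 6.80 vehicle and 4.46 LPC midpoints per 100 kb. A gap held a vehicle midpoint in 3.01% of cases (2.62 to 3.44) and an LPC midpoint in 2.21% (1.88 to 2.58). Over all vehicle-list intervals, most of them far longer, the shares were 5.87% and 3.96%.

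Midpoints were densest around the gap centre and thinned out to both sides. In the 100 bp bins on either side of the gap centre there were 12.3 and 18.4 vehicle midpoints per 100 kb, at 200 to 300 bp from it 6.31 and 6.17, and at 400 to 500 bp 2.44 on each side. The left and right flanks held 176 and 185 vehicle midpoints and 116 and 119 LPC midpoints, counted for each gap. Within the gap, 121 of 210 vehicle midpoints (57.6%, 50.6 to 64.4) lay in the right part and 89 in the left. For LPC the counts were 84 and 70 (54.5% right, 46.3 to 62.6). The left and right follow the chromosome and not the direction of a gene.

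**Figure D3:**
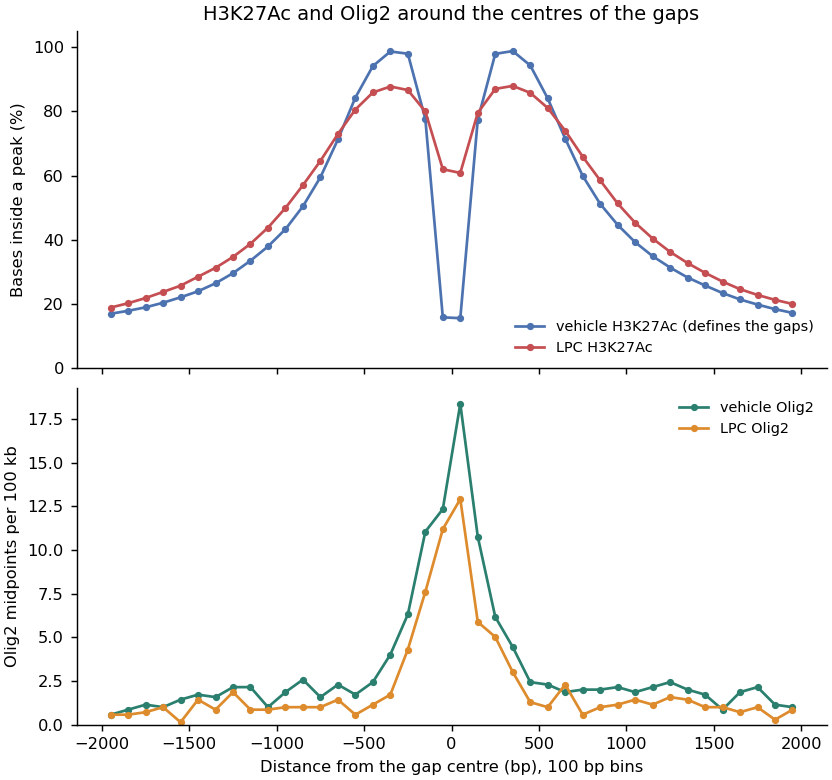
Distance from the gap centre (x axis, bp, 100 bp bins) against the share of bases inside vehicle and LPC H3K27Ac peaks (top, %) and Olig2 midpoints per 100 kb (bottom) over the 6970 gaps. In the 2 central bins vehicle H3K27Ac covers 15.8% and 15.5% by construction and LPC H3K27Ac 62.0% and 60.8%, while Olig2 midpoints are densest there.

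Olig2 density was lower in longer gaps, and an excess over the flanks was not seen beyond 500 bp. Gaps under 100 bp, outside the limits, held 26.7 vehicle midpoints per 100 kb, with a ratio of gap to flank of 2.65 (2.05 to 3.38). Within the limits the density was 16.6 from 100 to under 150 bp, 16.3 from 150 to under 200 bp and 16.4 from 200 to under 300 bp, then 11.4 from 300 to under 400 bp and 7.03 from 400 to 500 bp. The ratio lay between 2.26 and 3.73 in the 5 classes from 100 to 500 bp. In gaps over 500 and up to 1000 bp the density was 1.70 per 100 kb and the ratio 1.01 (0.49 to 2.04), and in gaps over 1000 and up to 2000 bp the ratio was 0.21 (0.07 to 0.50). For LPC Olig2 the ratio ran from 2.31 to 5.25 within the limits. The lowest, from 400 to 500 bp, had an interval that includes 1 (0.89 to 6.07). Over 500 and up to 1000 bp the ratio was 1.22 (0.49 to 3.02).

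The outer edges of the same peaks held almost no Olig2 midpoints. Among 7846 flanking peaks of at least 500 bp with no other vehicle peak within 1000 bp on the far side, the 250 bp next to the gap held 205 vehicle midpoints and the 250 bp at the far end 8. The ratio was 25.6 (12.8 to 60.2). For LPC Olig2 the counts were 131 and 3. The windows beyond the outer edges held 14 vehicle midpoints in 2500 kb, or 0.56 per 100 kb.

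Olig2 sat near the middle of an acetylated stretch whether or not the stretch had a gap. Pairs of vehicle peaks around a single short gap, with no other peak within 1000 bp and a span of 1000 to 2500 bp, numbered 3491. They held 344 vehicle Olig2 midpoints, of which 206 (59.9%, 54.5 to 65.1) lay in the central 20% of the span and 13 in the 20% at either end. The 3885 single vehicle peaks of the same length range with no near neighbour held 521 midpoints, with 306 (58.7%, 54.4 to 63.0) in the central 20% and 25 in the end parts. For LPC Olig2 the shares in the central 20% were 61.9% and 61.0%. Per 100 kb the gapped pairs held fewer vehicle midpoints than the single peaks, 6.07 against 8.88, and fewer LPC midpoints, 4.22 against 5.59.

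Gaps that lay away from the middle of their pair allow gap and middle to be set apart. Of 4149 isolated pairs, 1647 had a gap outside the window of equal length at the centre of the span. These off-centre gaps held 31 vehicle midpoints (10.6 per 100 kb), and the central windows, which were in a vehicle peak, held 40 (13.7 per 100 kb), a ratio of 0.78 (0.47 to 1.27). The window at the mirror position, equally far from the centre on the other side, held 18 (6.18 per 100 kb), and the gap over mirror ratio was 1.72 (0.93 to 3.27). With LPC Olig2 the 3 counts were 29 in the gap, 29 in the centre and 23 in the mirror window. For off-centre gaps an excess of Olig2 in the gap over the acetylated middle was thus not detectable, and the excess over the mirror position had an interval that includes 1.

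**Figure D4:**
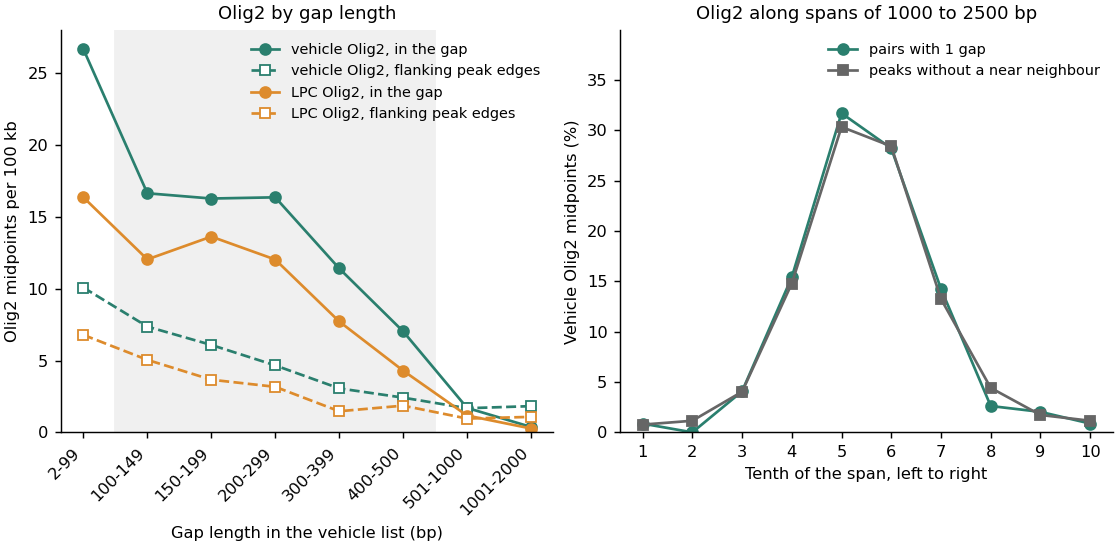
Left, Olig2 midpoints per 100 kb (y axis) in gaps (solid) and in the 500 bp of peak on each side (dashed) by gap length in the vehicle list (x axis, bp; grey marks 100 to 500 bp). Right, share of vehicle Olig2 midpoints (y axis, %) in each 10% step of spans of 1000 to 2500 bp, for 3491 pairs with 1 gap and 3885 peaks without a near neighbour; both curves peak in the 2 central steps.

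Gaps cut by the same rule from the LPC H3K27Ac list gave ratios within the intervals of the vehicle gaps. The 5224 gaps held 71 LPC Olig2 midpoints (6.38 per 100 kb) and their flanks 122 (2.47 per 100 kb), a ratio of 2.58 (1.90 to 3.48). With vehicle Olig2 the ratio was 2.44 (1.91 to 3.10). In the length classes from 100 to under 400 bp the ratios of both Olig2 lists lay between 2.30 and 3.67. From 400 to 500 bp no excess was seen, with 0.39 (0.04 to 1.78) for LPC Olig2 and 0.89 (0.25 to 2.71) for vehicle Olig2. Those 2 ratios rest on 2 and 5 midpoints in gaps. In the 1620 off-centre gaps of LPC pairs, 22 LPC midpoints lay in the gap, 16 in the central window and 10 in the mirror window. For vehicle Olig2 those counts were 27, 28 and 13, and the gap over mirror ratio was 2.08 (1.04 to 4.38). In LPC pairs the central 20% of the span held 58.6% (49.6 to 67.2) of LPC midpoints, against 64.6% (60.5 to 68.5) in single LPC peaks of the same length range. The LPC gaps are not an independent sample of sites, since 2103 of them pair with a vehicle gap of 100 to 500 bp.

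Vehicle Olig2 peaks centred on a gap were found again in LPC about as often as all others. Of the 210, 139 (66.2%, 59.4 to 72.6) overlapped an LPC Olig2 peak, against 64.0% (62.6 to 65.3) of the other vehicle Olig2 peaks, a difference of 2.24 points (-4.54 to 8.45). In 97 of the 139 (69.8%) the LPC midpoint fell in the same gap, and the midpoints of the matched peaks were a median of 44 bp apart. These 97 gaps are 46.2% of the gaps with a vehicle midpoint and 63.0% of those with an LPC midpoint. Of the 48 LPC-only Olig2 peaks 1 was centred on a gap, where 4.77% of all 3229 LPC Olig2 peaks were.

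Gaps with an Olig2 midpoint were filled by LPC acetylation at least as often as gaps without one. With a vehicle midpoint, 88 of 210 gaps (41.9%, 35.2 to 48.9) were filled, and without one 36.3% (35.1 to 37.4), a difference of 5.62 points (-0.95 to 12.5) whose interval includes 0. With an LPC midpoint, 75 of 154 (48.7%, 40.6 to 56.9) were filled against 36.2% without, a difference of 12.5 points (4.67 to 20.4). This second contrast was added after the data had been seen. Gaps with a vehicle midpoint were longer than the rest (median 212 against 186 bp), although longer gaps were filled less often. Within length classes that start at 100, 150, 200 and 300 bp, the differences for a vehicle midpoint were 6.59, 13.5, 9.07 and 9.21 points, each with an interval that includes 0. For an LPC midpoint they were 18.6, 12.3, 12.7 and 21.7 points, and the interval of the class from 150 to under 200 bp includes 0.

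Few gaps with Olig2 were kept, a class that allows no base of the gap in an LPC peak. A short LPC interval at the gap was more frequent. The 3268 gaps with an LPC interval of up to 500 bp held 87 vehicle midpoints. Of the 210 gaps with a vehicle midpoint, 99 were partly filled and 3 were kept (1.43%, 0.30 to 4.12). That interval includes the 3.67% (3.23 to 4.14) kept among gaps without a midpoint. A further 10 of the 210 lost 1 flank, against 327 of the 6760 gaps without a midpoint. Another 10 lost both, against 134 of the 6760. Both flanks were missing from LPC in 7 of the 71 gaps whose vehicle Olig2 peak had no LPC match and in 3 of the 139 gaps with a match. Filling did not separate these classes, with 39.4% (28.0 to 51.7) of the 71 and 43.2% (34.8 to 51.8) of the 139 filled. Where a vehicle Olig2 peak lay over the gap with its midpoint elsewhere, 199 of 399 gaps (49.9%, 44.9 to 54.9) were filled. Those gaps were short, with a median of 155 bp.

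Among the gaps filled in LPC, Olig2 midpoints were denser in the former gap than beside it, in both Olig2 lists. The 2541 filled gaps held 88 vehicle midpoints (19.1 per 100 kb of gap) and 75 LPC midpoints (16.3 per 100 kb). The ratio of gap to flank was 2.59 (1.98 to 3.36) for vehicle Olig2 and 3.31 (2.44 to 4.46) for LPC Olig2. In partly filled gaps the ratios were 2.51 (1.93 to 3.25) and 2.89 (2.09 to 3.96). The 251 kept gaps held 3 vehicle and 2 LPC midpoints, too few to set against their flanks (ratio 1.10, 0.20 to 4.07, for vehicle). For vehicle Olig2 the ratio was 4.31 (1.58 to 12.0) with 1 flank left and 6.16 (2.03 to 20.6) with both flanks lost. Each rests on 10 midpoints in gaps. For LPC Olig2 these ratios were 1.66 (0.28 to 7.29) and 1.85 (0.30 to 8.65), each on 3 midpoints. A higher density in the gap was thus not particular to filled gaps.

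Single gaps show both outcomes, named by a rule on the length of the flanking peaks and given on rn4. Of the 97 gaps with a midpoint in both Olig2 lists, 45 were filled, 45 partly filled and 2 kept. The filled one with the longest flanks lay on chromosome 18 (24377369 to 24377531, 163 bp), between vehicle peaks of 3939 and 1676 bp, and 1 LPC peak of 6779 bp bridged it. Its vehicle Olig2 peak (24376628 to 24378156) had the midpoint 23 bp from the left edge of the gap, and its LPC Olig2 peak (24376602 to 24378325) 95 bp from it. The next, a 123 bp gap on chromosome 2 (197833188 to 197833310), was bridged by an LPC peak of 4351 bp. A 106 bp gap on chromosome 5 (142874390 to 142874495) was bridged by one of 4154 bp. The midpoints of both conditions on chromosome 5 were 1 bp apart, at 95 and 94 bp from the left edge. The fourth was on chromosome 1 (34600682 to 34600882, 201 bp), where the vehicle Olig2 peak was 698 bp and the LPC one 849 bp long.

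The 2 kept gaps with Olig2 in both lists were on chromosomes 15 and 8. On chromosome 15 (84188396 to 84188565) the gap was 170 bp in vehicle, and the LPC interval at the same place (84188395 to 84188611) was 217 bp, its left end 1 bp away. The vehicle Olig2 peak there was 1004 bp long and the LPC one 1178 bp. On chromosome 8 (107700657 to 107700914) the gap measured 258 bp in vehicle, and the LPC interval around it 362 bp. The Olig2 peaks there were 1218 bp (vehicle) and 1110 bp (LPC) long. At both sites the flanking vehicle peaks were 680 to 986 bp long. The 4 filled gaps named above were picked for the longest flanks among 45, so their flank lengths cannot be set against these.

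Gaps whose vehicle Olig2 peak had no LPC match numbered 71. That with the longest flanks, on chromosome 1 (44783176 to 44783407, 232 bp), had 126 bp covered in LPC, and an LPC interval of 136 bp was found across its right edge. The next 3 were all filled. A gap of 242 bp on chromosome 5 (142334475 to 142334716) was bridged by an LPC peak of 4765 bp. The others, 166 bp on chromosome 8 (34520640 to 34520805) and 189 bp on chromosome 10 (63927674 to 63927862), were bridged by LPC peaks of 4088 and 4146 bp. At these 4 sites acetylation was called on both flanks in LPC while Olig2 was not called. The gap that held the LPC-only Olig2 midpoint, 467 bp on chromosome 3 (143357265 to 143357731), was filled by an LPC H3K27Ac peak of 2806 bp. Genes are not named and sequences are not printed, since neither annotation nor genome of rn4 was used.

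**Figure D5:**
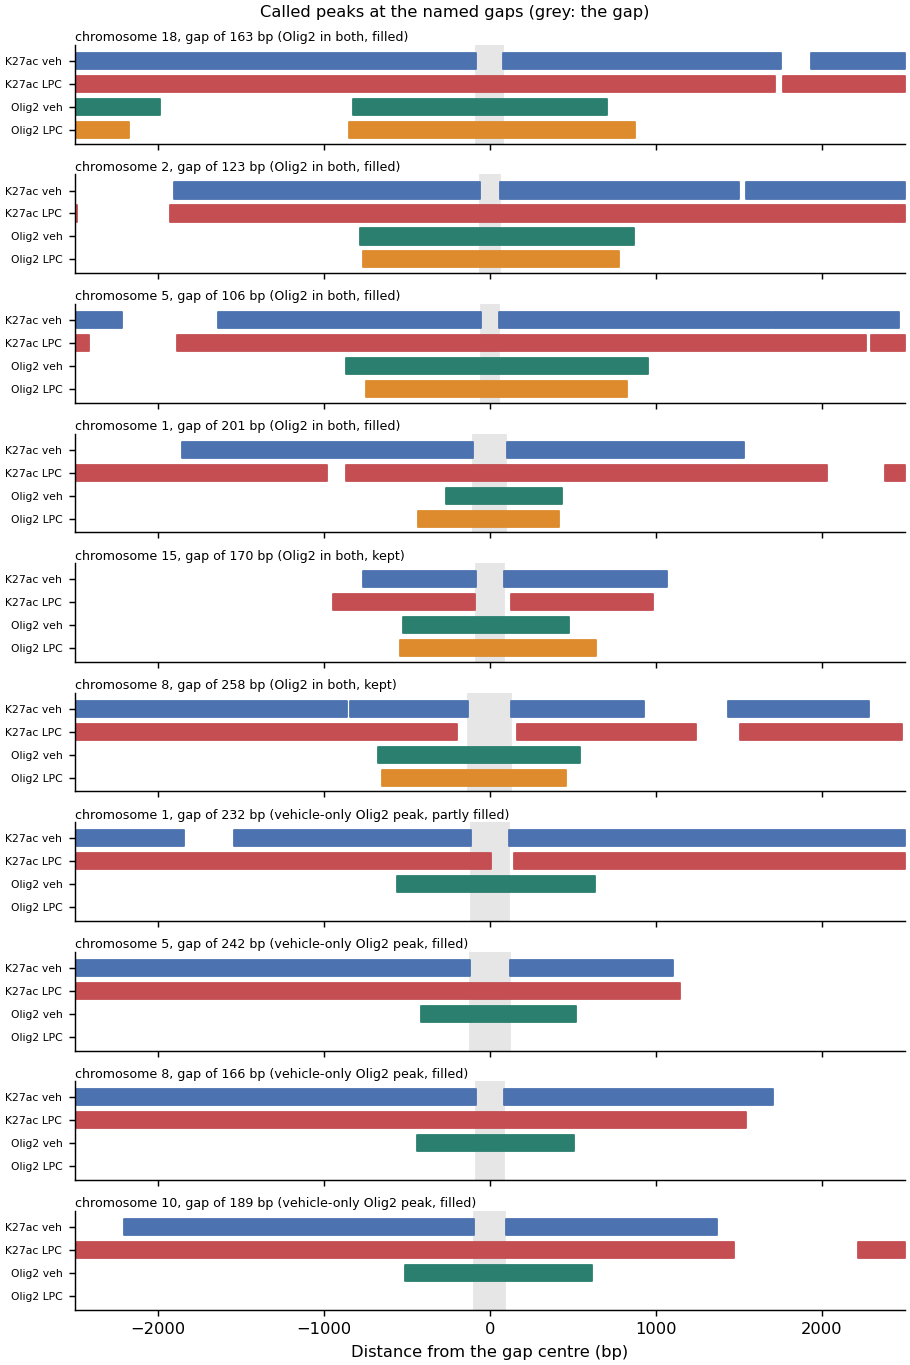
Called peaks of the 4 lists within 2500 bp of the centre of each named gap with a vehicle Olig2 midpoint (x axis, distance in bp; bars are peaks, grey is the gap). The first 4 panels show 1 unbroken LPC H3K27Ac bar across the gap, the next 2 show a break in both H3K27Ac lists, and the last 4 have no LPC Olig2 bar.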

How the data were processed

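Each library came as a list of chromosome, start and end (3 columns) that the authors deposited, without header, score or p-value. MACS 1.4.2 and the build rn4 are named in the submitters' processing notes. Aligner, control, threshold and depth: not given in the sources used here. The labels do not say whether a library pooled cultures.

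Gaps, their cover by the other H3K27Ac list (minimum overlap 1 bp) and Olig2 midpoints were computed with numpy 2.4.6, SciPy 1.17.1 and pandas 2.3.3 under Python 3.11.15. Bedtools 2.31.1 gave identical values in 4 checks of counts, and the code was tested on simulated lists. A stretch of peak between 2 gaps entered the flank density once. Intervals of density ratios come from the exact binomial interval of the 2 counts. Coordinates are 1-based.

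The gaps, comparisons and alternatives were chosen with earlier results of these data known. Named gaps followed a rule: those with an Olig2 midpoint, ranked by the summed length of the flanking peaks (4 filled, 4 kept of which 2 exist, 4 with a vehicle-only and 4 with an LPC-only Olig2 peak of which 1 exists), and the 4 longest runs. The edge, span, off-centre and shortened-peak comparisons were added after the data had been seen.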

Additional observations from a re-analysis of the deposited data

How the results depend on the processing

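Of the 32 alternatives for the 6 main results, 17 stayed within the interval of the reported value and 15 moved outside it. None reversed a ratio or difference, but the filled share has no direction to reverse. Autosomes alone keep 6812 of the 6970 gaps, so that alternative could change little. With flanks of 250 bp the Olig2 density ratio was 1.74 for vehicle and 1.93 for LPC, and with gaps of 200 to 500 bp it was 3.21 and 3.48. The share of gaps filled by LPC peaks was 60.1% when at least 50% of the bases had to be covered, 54.7% for the gap midpoint, 22.0% for gaps of 200 to 500 bp, 40.7% for gaps of 100 to 300 bp, 43.0% with LPC peaks on both flanks and 32.7% with shortened LPC peaks, which seldom reopen a bridged gap by construction. The difference between the 2 directions of filling was 35.1 points for 50% cover and 14.9 points for gaps of 200 to 500 bp. The difference between members and gaps over 500 and up to 1000 bp was 19.3 points for 50% cover and 18.7 points for the midpoint. The difference in filling with and without Olig2 was 12.5 points for the LPC midpoint, which was added later along with the shortened peaks and the LPC-list gaps. With a vehicle midpoint it excluded 0 for gaps of 200 to 500 bp (9.21, 1.51 to 18.1) and for gaps with both flanks (7.54, 0.09 to 15.0). With a vehicle Olig2 peak touching the gap in place of a midpoint it was 11.7 points (7.58 to 15.8), not adjusted for gap length. In 399 of the touched gaps the midpoint lay elsewhere. Their median length was 155 bp, against 187 bp for gaps with no Olig2 peak, and shorter gaps were filled more often. Depth is unknown, so a missing peak may lie under its list's threshold. No paired analysis was possible because each group has 1 library, and no replicate could be left out.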
